A study of Homo sapiens with 6 samples.

Results

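Enzymes that modify drugs, other foreign compounds and reactive carbonyls were followed in NB4 cells exposed to Tan I. Members were chosen by gene symbol: the cytochrome P450 (CYP) genes other than CYP1A1, CYP1A2, CYP1B1 and CYP51A1, and the glutathione S-transferase (GST), microsomal glutathione S-transferase (MGST), aldo-keto reductase (AKR), aldehyde dehydrogenase (ALDH), UDP-glucuronosyltransferase (UGT), sulfotransferase (SULT), epoxide hydrolase (EPHX) and carbonyl reductase (CBR) families, with NQO2 and POR. Of the 18625 genes in the expression table, 67 met this rule, and 58 of these reached the mean of 10 normalized counts needed for testing, as 16887 genes did.

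NB4 is a line of acute promyelocytic leukemia cells, and Tan I is Tanshinone I, a lipid-soluble compound of the medicinal plant Salvia miltiorrhiza. Cells were kept for 3 days in the solvent DMSO alone or in Tan I at a dose of 10 µM, and RNA-seq was done on 3 libraries per group. Both groups were of this 1 cell line, so they carry the same leukemia genotype. The labels do not say whether the libraries came from separate cultures, so p-values measure the spread between these samples, which may be technical.

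Foreign compounds are usually handled in steps. P450 enzymes, fed with electrons by the reductase POR, oxidise a compound, and transferases then attach glutathione, glucuronic acid or sulfate to it so that it can leave the cell. Aldo-keto reductases, carbonyl reductases and aldehyde dehydrogenases remove aldehydes and ketones, epoxide hydrolases open reactive epoxides, and NQO2 reduces quinones, the chemical class to which Tan I belongs. Many of these genes are best known from the liver, while GSTP1, GSTO1 and the MGST genes are widely expressed.

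The listed genes held 25356503 to 31679138 reads in the DMSO libraries and 21502760 to 24298627 in the Tan I libraries. A normalized count is a read count divided by the size factor of its library. Over the genes tested, the first principal component held 70.8% of the variance between libraries and did not follow treatment: DMSO replicate 2 (score 41.1) and Tan I replicate 3 (71.6) lay at 1 end, and DMSO replicate 1 (-48.0) and Tan I replicate 1 (-46.8) at the other. The promyelocyte marker MPO, which encodes myeloperoxidase, was abundant in every library (33279 to 64107 normalized counts). Of the 8 promyelocyte markers tested, 3 were fitted higher with Tan I (SPI1 at 0.36, CEBPA at 0.11 and CD33 at 0.07) and 5 lower, and 2 were called, MPO and CTSG, both lower, with log2 fold changes of -0.78 and -0.69. Of all genes tested, 1.10% were called lower. Their part in the enzyme results was not tested. The hepatocyte marker ALB had 8.60 to 25.3 normalized counts per library. The 4 hepatocyte markers measured summed to 1028 to 1241 normalized counts in DMSO and 940.3 to 1164 in Tan I, and none of them was called. In bulk RNA, fewer cells expressing a gene and less of its RNA per cell cannot be told apart.

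The sequences in front of the genes that the results turn on are shown first. The RefSeq promoter table on GRCh38.p14, which gives 250 bases before and 50 bases after each start, held 75 promoters of 54 of the 67 enzymes. They were searched on both strands for TGACNNNGC, the core letters of the antioxidant response element, and for GCGTG, those of the xenobiotic response element. TGACNNNGC stood in 11 of 75 promoters (14.7%), against 13.4% of all 35116 promoters and 14.6% of the 15181 promoters of genes tested. GCGTG stood in 22 (29.3%), against 36.5% and 48.0%. Abundant members with TGACNNNGC before a start were GSTP1, GSTO1, AKR7A2 and EPHX1, and their motifs are printed in capitals within 29 bases (chr11:67583736-67583764, + strand, for GSTP1, chr10:104254656-104254684, + strand, for GSTO1, chr1:19312295-19312323, - strand, for AKR7A2, where the letters read on the opposite strand, and chr1:225825266-225825294, + strand, for EPHX1). EPHX1 has several promoter entries, and only the entry shown here holds TGACNNNGC. The entry at its annotated gene start does not.
GSTP1: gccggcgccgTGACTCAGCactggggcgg
GSTO1: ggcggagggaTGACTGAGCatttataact
AKR7A2: gtcaaggcccGCCGGGTCAgctgaccgcg
EPHX1: tgagattggcTGACTTGGCaggactgtgc

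The 3 members that were called in the comparison below are shown by 100 bases upstream of their first annotated start: MGST1 at chr12:16347015-16347114 on the + strand, CYP3A4 at chr7:99784249-99784348 on the - strand and GSTT4 at chr22:24005454-24005553 on the - strand.
MGST1: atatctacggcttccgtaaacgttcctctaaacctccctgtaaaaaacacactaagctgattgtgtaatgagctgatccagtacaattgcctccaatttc
CYP3A4: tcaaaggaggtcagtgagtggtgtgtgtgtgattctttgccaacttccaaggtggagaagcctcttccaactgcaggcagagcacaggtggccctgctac
GSTT4: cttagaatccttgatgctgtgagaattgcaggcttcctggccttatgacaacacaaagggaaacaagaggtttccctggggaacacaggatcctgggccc
Neither motif lies in the promoter entries of CYP3A4 and GSTT4. MGST1 has TGACNNNGC only at base 31 after 1 of its 3 starts. These matches describe letters and say nothing about binding.

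NB4 cells expressed these enzymes at very different levels. Per kilobase of canonical transcript, the scale on which genes can be compared, GSTP1 was highest at a mean of 10373 normalized counts per kilobase over the 6 libraries. GSTP1 conjugates glutathione to electrophiles, and it alone made up 23.9% to 31.9% of the summed level per kilobase of the 67 enzymes. AKR1A1 (3225), GSTO1 (3190), AKR1B1 (2519), GSTK1 (2332) and MGST1 (2022) followed. AKR1A1 and AKR1B1 reduce aldehydes to alcohols, GSTO1 carries thioltransferase activity, and GSTK1 is the mitochondrial and peroxisomal class. ALDH18A1 (1482), which makes a precursor of proline, the mu-class transferases GSTM2 (1346) and GSTM4 (1254), and AKR7A2 (883), an aldehyde reductase, completed the 10 highest.

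**Figure D1:**
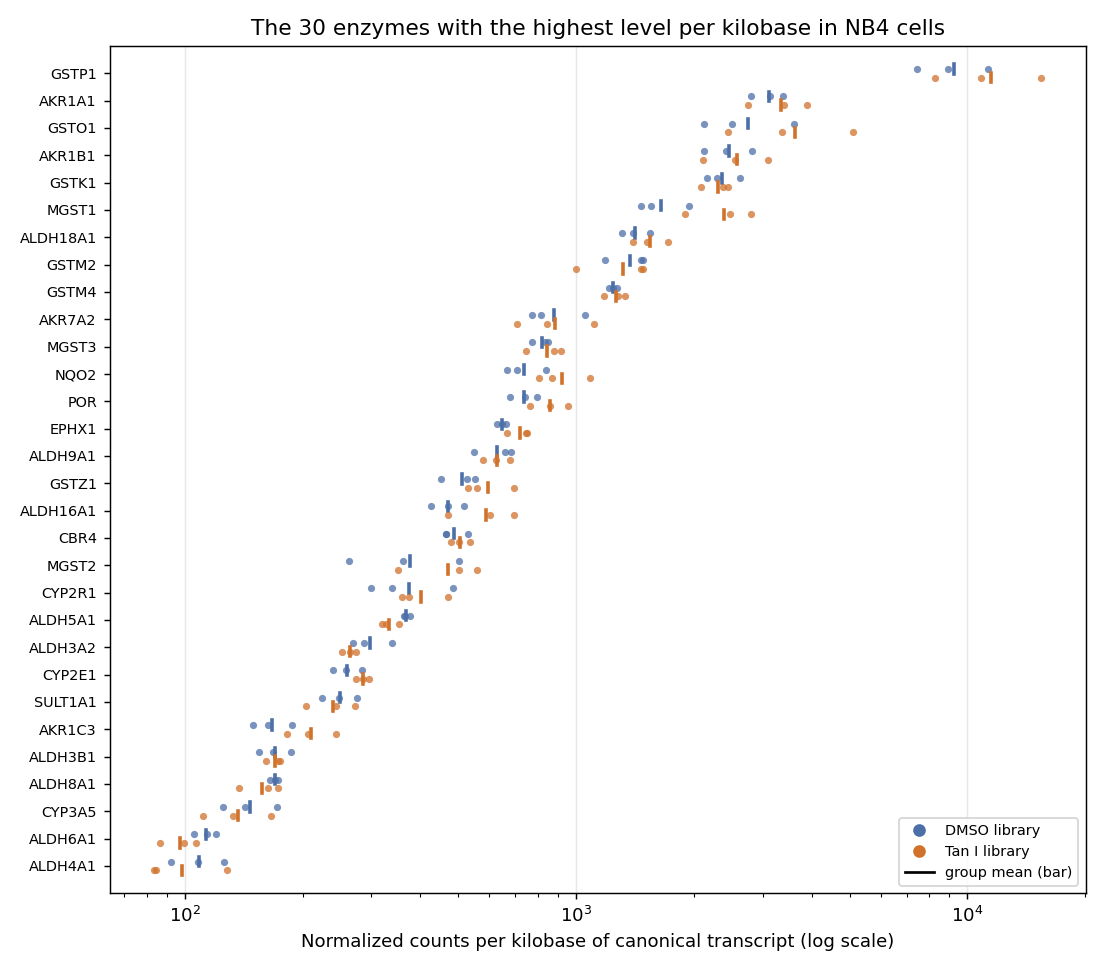
Normalized counts per kilobase of canonical transcript (log axis) for the 30 enzymes with the highest mean; each point is a library, blue for DMSO and orange for Tan I, and the short vertical bars are group means (n = 3). GSTP1 lies above all others, and for most enzymes the points of the groups overlap.

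By family, the GST genes held 48.0% to 53.9% of the summed level per kilobase, the AKR genes 17.6% to 19.2%, the ALDH genes 9.13% to 11.3% and the MGST genes 7.95% to 9.75%. The 20 P450 genes together held only 2.36% to 3.87%. On the scale of mean normalized counts, 17 enzymes had at least 1000, 20 had 100 to 1000, 21 had 10 to 100, and 9 stayed under 10 and were not tested. Those 9 were AKR1C4, ALDH1L1, ALDH1L2, CYP2A7, CYP4F2, EPHX4, GSTM3, SULT1A3 and UGT2B11.

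The comparison of Tan I with DMSO asked whether the treatment moved this detoxification equipment. It was made with limma on log2(normalized count + 1), a scale that understates changes of low genes. A gene was called at an unadjusted p of at most 0.05 if its log2 fold change was also 0.25 or more in absolute size. Adjusted p-values are those of Benjamini and Hochberg over all genes tested. Of the 58 enzymes, 3 were called (5.17%): MGST1 higher, and CYP3A4 and GSTT4 lower. The Tan I means of CYP3A4 (8.55) and GSTT4 (9.59) lay under the minimum of 10. Both were therefore tested only because of their higher DMSO libraries, and their calls are no independent support for a fall. Of all genes tested, 2.42% were called, 1.32% higher and 1.10% lower. Among 58 enzymes, 3 calls are too few to read as a share above this background.

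No enzyme passed after adjustment: the smallest adjusted p from limma over the 58 was 0.999, and 0 of all 16887 genes reached 0.05, although 410 had an unadjusted p of at most 0.05. Over all genes, the adjusted p was at most 0.05 for 16 with DESeq2, 0 with edgeR and 194 in limma with the first principal component as covariate. That component was computed from the same values that were tested, so fits with it as covariate give no separate support for a change. The edgeR quasi-likelihood test and DESeq2 on the recovered reads each gave 2 of the same enzymes (CYP3A4 and MGST1) an unadjusted p of at most 0.05 and none an adjusted one, with no adjusted value from DESeq2 for 10 of the 58. Fitted log2 fold changes were positive for 28 enzymes and negative for 30, with a median of -0.0027, beside -0.0016 over all genes tested. They were under 0.25 in absolute size for 36 of the 58. The half-width of the 95% confidence interval was 0.48 at the median and at least 0.24, so with 3 libraries per group, changes of single enzymes within these widths could not be told from 0.

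**Figure D2:**
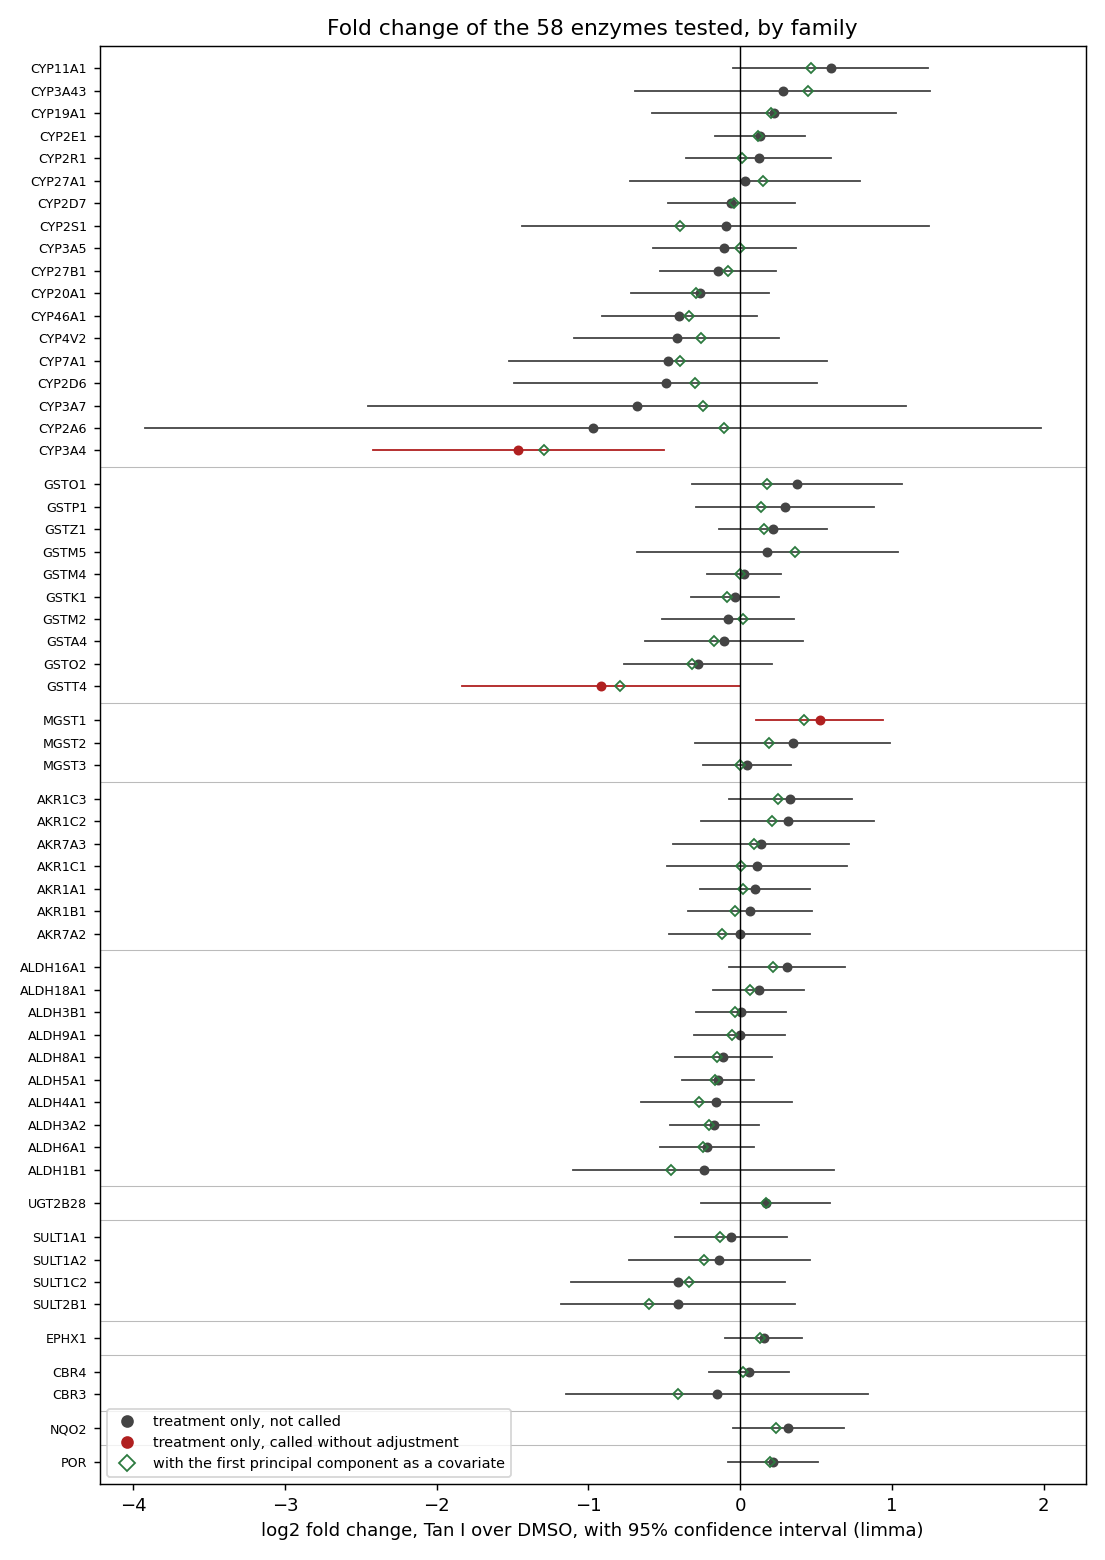
Log2 fold changes (Tan I relative to DMSO) of the 58 enzymes tested, grouped by family; circles with lines are limma values with 95% confidence intervals, red for the 3 enzymes called without adjustment, and green diamonds are the values with the first principal component as covariate. Only the intervals of CYP3A4, GSTT4 and MGST1 exclude 0.

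The spread within a group was often larger than the difference between groups. For 47 of the 58 enzymes (81.0%), the range of the 3 DMSO libraries on the log2 scale exceeded the fitted change, beside 86.7% of all genes tested. DMSO replicate 2 and Tan I replicate 3, which lie at the same end of the first principal component, were the 2 highest libraries for 17 enzymes (29.3%, beside 26.5% of all genes tested), GSTP1, GSTO1 and AKR1B1 among them. They were the 2 lowest for 7 (12.1%, beside 24.9%).

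Libraries of the groups did not overlap for 5 of the 58 enzymes. EPHX1 was higher with Tan I in every library, as were 3.92% of all genes tested, and CYP3A4, GSTT4, ALDH5A1 and CYP46A1 were lower in every library, as were 3.97%. For each of these the exact two-sided permutation test gave p = 0.1, the smallest that 3 against 3 libraries can give. When each library was instead rescaled to the same total, 15 enzymes did not overlap, 5 higher and 10 lower, beside 8.30% of all genes tested in either direction. That scaling moved the median of all genes to -0.06.

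Among the oxidising enzymes, POR supplies electrons from NADPH to all microsomal P450 enzymes. POR had 1811, 1662 and 1940 normalized counts with DMSO and 1870, 2104 and 2339 with Tan I. Tan I replicate 1 lay within the DMSO range. Its log2 fold change of 0.22 had a 95% confidence interval of -0.08 to 0.52, and POR was not called.

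Of the 20 P450 genes, 18 were tested, 6 with a positive and 12 with a negative fold change, and 1 was called lower. Their median log2 fold change was -0.12, beside -0.0016 over all genes tested. The call was CYP3A4, the main drug-oxidising P450 of liver and gut. Its normalized counts were 29.8, 17.3 and 28.1 in DMSO and 9.77, 10.5 and 5.33 in Tan I. These came from 32, 18 and 36 reads against 10, 10 and 4, so every Tan I library lay below every DMSO library, at a very low level throughout. The mean went from 25.1 ± 6.78 to 8.55 ± 2.81 (SD, n = 3 each). The fitted log2 fold change was -1.46 (SE 0.41, 95% confidence interval -2.42 to -0.50). The unadjusted p from limma was 0.00843 and the adjusted p 0.999. With the first principal component as covariate the fold change was -1.30 (adjusted p from limma 0.0907).

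CYP3A4 (ENSG00000160868) occupies bases 99756960 to 99784248 of chromosome 7, - strand (GENCODE release 44, GRCh38), between its relatives CYP3A7 and CYP3A43. None of these neighbours was called. CYP3A5, which acts on many of the same drugs, was the highest of the 4 per kilobase, and its normalized counts were 297, 215 and 245 in DMSO and 285, 229 and 192 in Tan I. The groups overlapped, with a log2 fold change of -0.10 (95% confidence interval -0.58 to 0.37). CYP3A43 was fitted at 0.28 (-0.69 to 1.25) and CYP3A7, the fetal form, at -0.68 (-2.45 to 1.10), both from means under 20 normalized counts. For CYP3A7, 70.3% of all 150-base stretches of the canonical transcript also lie in an overlapping readthrough gene, so its counts are uncertain.

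CYP2A6, which oxidises nicotine and coumarin, had the largest standard error of the P450 genes (1.26). It had 199, 18.3 and 105 normalized counts in DMSO and 201, 33.7 and 6.67 in Tan I. Within each group replicate 1 was highest, and the lowest libraries were those at the high end of the first principal component. Its log2 fold change of -0.97 had an interval of -3.93 to 1.98, and with that component as a covariate it was -0.10. Its near copy CYP2A7, below the minimum, had 17.7, 2.89 and 14.1 in DMSO and 9.77, 0 and 0 in Tan I. CYP2A6 and CYP2A7 share 2.42% of their 150-base stretches. CYP2A6 and CYP46A1 are described because of their values, not by the rule that selected the other genes named singly.

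The P450 genes of steroid synthesis were fitted higher. CYP11A1 cleaves the side chain of cholesterol, and it had the largest positive fold change of all enzymes tested. It had 53.2, 89.6 and 52.4 normalized counts in DMSO and 80.1, 99.1 and 110.7 in Tan I. Tan I replicate 1 lay below DMSO replicate 2, and the log2 fold change of 0.60 (SE 0.27, interval -0.04 to 1.24) was not called (unadjusted p 0.0637, adjusted p 0.999, limma). Of the 150-base stretches of CYP11A1, 10.8% overlap genes of the opposite strand, and the strand setting of the counting is not given. CYP19A1, the aromatase that makes estrogens, was fitted at 0.22 from 14.1 to 26.4 normalized counts.

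For sterol and bile acid metabolism, CYP46A1, the cholesterol 24-hydroxylase, had 71.8, 59.7 and 67.2 normalized counts in DMSO and 53.8, 53.7 and 42.7 in Tan I. The groups did not overlap, but the log2 fold change of -0.40 (interval -0.91 to 0.11) was not called. CYP27A1 was fitted at 0.03 and CYP7A1, the rate-limiting enzyme of bile acid synthesis, at -0.48 from a mean under 20. The vitamin D 25-hydroxylase CYP2R1 was the most abundant P450 per kilobase, with 661 to 1071 normalized counts in DMSO and 794 to 1042 in Tan I and a fold change of 0.12. CYP27B1, which makes the active form of vitamin D, was fitted at -0.15.

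The other P450 genes were not called either. CYP2E1, an ethanol-oxidising enzyme, had 400.0, 476 and 432 normalized counts in DMSO and 477, 496 and 457 in Tan I, and its log2 fold change was 0.13 (interval -0.16 to 0.43). The groups overlapped. CYP4V2, a fatty acid hydroxylase, was fitted at -0.42, CYP2D6 at -0.49, CYP20A1 at -0.26, CYP2S1 at -0.10 and CYP2D7 at -0.06.

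Among the glutathione-dependent enzymes, the soluble GST genes were fitted higher for 5 and lower for 5 of 10 tested, with 1 call. GSTP1 had 5518, 8367 and 6612 normalized counts in DMSO and 6139, 8042 and 11439 in Tan I. The highest library was Tan I replicate 3, but the other two Tan I libraries lay within the DMSO range. The log2 fold change was 0.30 (SE 0.25, interval -0.29 to 0.88). GSTO1 ran the same way across libraries, with 1731, 2938 and 2036 in DMSO, 1982, 2738 and 4138 in Tan I and a fold change of 0.37 (interval -0.32 to 1.07). With the first principal component as covariate these fold changes were 0.14 and 0.18. Leaving out Tan I replicate 3 gave 0.0615 for GSTP1 and 0.0961 for GSTO1, and leaving out DMSO replicate 1 gave 0.15 and 0.21. They were 0.51 and 0.63 without Tan I replicate 1, and 0.45 and 0.59 without DMSO replicate 2.

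GSTK1, GSTM2 and GSTM4 had log2 fold changes of -0.04, -0.08 and 0.02. GSTM4 was the steadiest of them, with 1692, 1732 and 1775 normalized counts in DMSO and 1645, 1784 and 1863 in Tan I. Its interval was -0.22 to 0.27, which covers only the spread between these libraries. GSTM2 shares 32.4% of its stretches with the overlapping gene GSTM1 and 5.31% with another locus, so its level is uncertain. GSTZ1, which acts in tyrosine breakdown, was fitted at 0.22, GSTM5 at 0.18, GSTA4 at -0.11 and GSTO2 at -0.28.

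GSTT4, a theta-class gene of chromosome 22 (23998401 to 24005453, - strand, ENSG00000276950), was called lower. It had 21.4, 17.3 and 16.4 normalized counts in DMSO and 13.7, 8.43 and 6.67 in Tan I. The groups did not overlap, on 18 to 23 reads against 5 to 14. The mean went from 18.4 ± 2.68 to 9.59 ± 3.65 (SD, n = 3 each). The fitted log2 fold change was -0.92 (SE 0.39, interval -1.83 to -0.0042, unadjusted p 0.0492, adjusted p 0.999, limma). Its p lay just under the threshold, and the call was lost under 11 of 16 other settings, including edgeR and DESeq2.

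MGST1, a membrane-bound transferase and peroxidase that protects the endoplasmic reticulum and mitochondria from lipid peroxides, was called higher. It is annotated on chromosome 12 from 16347142 to 16609259 on the + strand (ENSG00000008394). It had 1353, 1793 and 1442 normalized counts with DMSO and 1758, 2286 and 2587 with Tan I. Tan I replicate 1 lay just under DMSO replicate 2, and the other two were higher than any DMSO library. The mean went from 1529 ± 233 to 2210 ± 419 (SD, n = 3 each). The fitted log2 fold change was 0.52, or 1.44-fold (SE 0.18, interval 0.11 to 0.94, unadjusted p 0.0208, adjusted p 0.999, limma). The exact two-sided permutation test gave p = 0.2.

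With the first principal component as covariate, the log2 fold change of MGST1 was 0.42 (SE 0.06) and its adjusted p from limma 0.00516, the only enzyme at or under 0.05. Because that component was computed from the same values, this p gives no separate support for a rise of MGST1. Over the 17 other settings its fold change stayed between 0.40 and 0.68 and its adjusted p ran from 0.00516 to 1. The call was lost without DMSO replicate 1, without DMSO replicate 3, without Tan I replicate 2 and without Tan I replicate 3, where the fold changes were 0.44, 0.49, 0.49 and 0.40. The main text of the study does not name MGST1. Its RNA-seq displays of NB4 cells come from these same libraries, so they would give no separate support.

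MGST2, which can also make leukotriene C4, had 195, 371 and 268 normalized counts in DMSO and 260.0, 372 and 412 in Tan I. Its groups overlapped, and the log2 fold change was 0.35 (interval -0.30 to 0.99). MGST3 was fitted at 0.04 (-0.25 to 0.34).

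**Figure D3:**
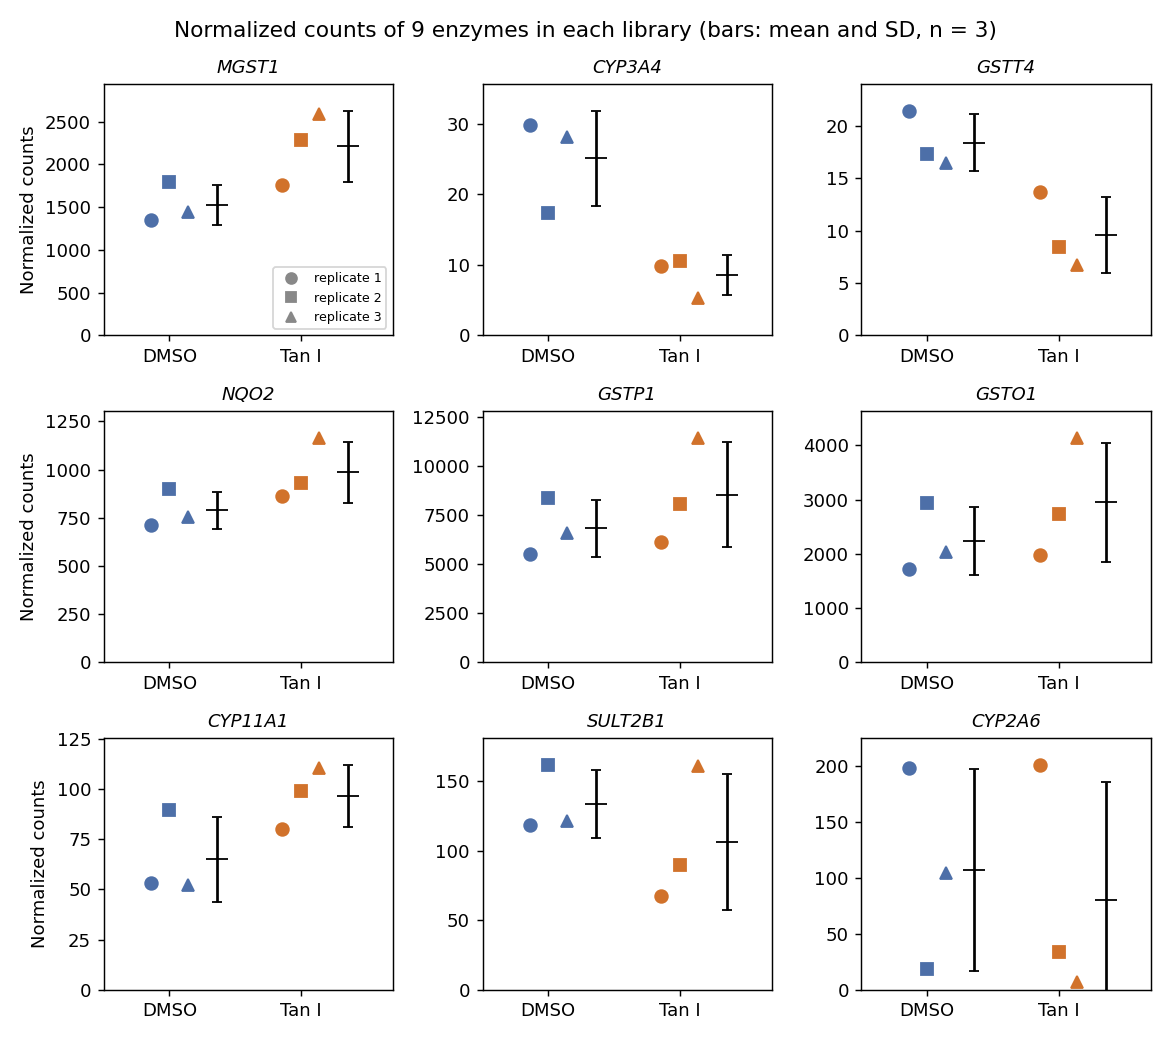
Normalized counts of 9 enzymes in each library, from 0; symbols mark replicate numbers, blue is DMSO and orange is Tan I, and the bars beside each group give the mean and SD (n = 3, cut at 0 for CYP2A6). CYP3A4 and GSTT4 do not overlap between groups, MGST1 overlaps by 1 library, and CYP2A6 varies more within than between groups.

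NQO2 had 714, 898 and 756 normalized counts in DMSO and 864, 933 and 1166 in Tan I. Only Tan I replicate 1 lay below a DMSO library. The log2 fold change was 0.32 (SE 0.16, interval -0.05 to 0.68) and was not called (unadjusted p 0.0804, adjusted p 0.999, limma). Its relative NQO1, which is outside the rule, was called higher at 1.11, with 956 to 1700 normalized counts in DMSO and 2083 to 3399 in Tan I; the difference between these paralogs was not tested.

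Of the carbonyl-reducing enzymes, all 7 AKR genes tested had log2 fold changes between -0.0020 and 0.33, and none was called. AKR1A1 had 3942, 4762 and 4400 normalized counts in DMSO and 3871, 4777 and 5477 in Tan I, and AKR1B1 had 2893, 3841 and 3283 against 2871, 3474 and 4204. Both spanned the DMSO range on either side, with fold changes of 0.10 (interval -0.27 to 0.46) and 0.07 (-0.34 to 0.47). AKR7A2 was fitted at -0.0020 (-0.47 to 0.46), the smallest difference of any enzyme.

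AKR1C3, which reduces prostaglandins and steroid ketones and is known from myeloid leukemia cells, had 177, 222 and 194 normalized counts in DMSO and 216, 245 and 288 in Tan I. Tan I replicate 1 lay below DMSO replicate 2. The log2 fold change was 0.33 (SE 0.17, interval -0.07 to 0.73) and was not called. Its neighbours AKR1C1 and AKR1C2 were fitted at 0.11 and 0.31, and AKR7A3 at 0.14. The AKR1C genes are near copies, and reads that mapped to several places had been removed: 17.2% of the 150-base stretches of AKR1C2, 7.91% of AKR1C1 and 2.12% of AKR1C3 recur in another of them.

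Of the carbonyl reductases, CBR4, a mitochondrial quinone and fatty acid synthesis reductase, had 1597, 1819 and 1603 normalized counts in DMSO and 1647, 1728 and 1846 in Tan I, with a log2 fold change of 0.06. CBR3 had 39.2, 72.2 and 38.3 against 26.4, 41.1 and 72.0, with a fold change of -0.15 (interval -1.15 to 0.85). In both genes DMSO replicate 2 and Tan I replicate 3 were the highest libraries. For CBR3, 49.0% of the stretches lie in the antisense gene CBR3-AS1.

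Of 10 ALDH genes tested, 3 were fitted higher and 7 lower, and none was called. ALDH16A1, a member without the usual catalytic cysteine, had 1323, 1600 and 1458 normalized counts in DMSO and 1459, 1870 and 2148 in Tan I, with a log2 fold change of 0.31 (interval -0.08 to 0.69). ALDH18A1 was fitted at 0.12 (-0.18 to 0.42). ALDH1B1, a mitochondrial acetaldehyde dehydrogenase, had 230, 476 and 198 in DMSO and 190, 203 and 340.1 in Tan I. DMSO replicate 2 alone set its DMSO mean apart: the fold change was -0.24 with that library and 0.14 without it.

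ALDH5A1, which breaks down succinic semialdehyde, had 1862, 1930 and 1874 normalized counts in DMSO and 1635, 1677 and 1812 in Tan I. The groups did not overlap, and the log2 fold change was -0.15 (interval -0.39 to 0.09). ALDH5A1 too was picked for its values. ALDH6A1 (-0.22), ALDH3A2 (-0.17), ALDH4A1 (-0.16), ALDH8A1 (-0.11), ALDH9A1 (-0.0033) and ALDH3B1 (0.0044) overlapped between groups.

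Conjugating enzymes other than the transferases of glutathione were few. UGT2B28, which glucuronidates steroids, had 116, 96.3 and 89.9 normalized counts in DMSO and 111, 107 and 119 in Tan I, with a log2 fold change of 0.17. The 4 sulfotransferase genes tested were all fitted lower, from -0.41 to -0.06, and none was called. SULT2B1, the cholesterol sulfotransferase, had 118, 162 and 121 in DMSO and 67.4, 89.6 and 161 in Tan I, with a fold change of -0.41 (interval -1.18 to 0.36). The value was -0.14 without Tan I replicate 1, -0.27 without DMSO replicate 2 and -0.76, which was called, without Tan I replicate 3. SULT1C2 was fitted at -0.41, SULT1A2 at -0.14 and SULT1A1 at -0.06. Counts of the SULT1A genes are uncertain, since 76.8% of the stretches of SULT1A1 and 38.7% of those of SULT1A2 lie in overlapping genes and 99.1% of those of SULT1A3 recur elsewhere.

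EPHX1, the microsomal epoxide hydrolase, had 1027, 1081 and 1059 normalized counts in DMSO and 1089, 1217 and 1223 in Tan I. The lowest Tan I library exceeded the highest DMSO library, by little: the log2 fold change was 0.15 (interval -0.10 to 0.41) and was not called. EPHX4, under the minimum, had 14.0, 19.3 and 7.81 against 6.84, 3.16 and 6.67.

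Shares of the summed level per kilobase of the 67 enzymes were set side by side by library, a description made after the values were seen and without a test. The MGST share was 8.01%, 8.17% and 7.95% in DMSO and 9.09%, 9.75% and 8.82% in Tan I. The SULT share was 1.29%, 1.24% and 1.24% in DMSO and 0.973%, 1.01% and 0.999% in Tan I. The AKR share was 19.1%, 18.8% and 19.2% in DMSO and 17.8%, 18.1% and 17.6% in Tan I. These families and NQO2 (2.04% to 2.14% against 2.20% to 2.44%) did not overlap between groups, while the other 7 of 11 did. Of all genes tested, 3.92% were higher and 3.97% lower in every Tan I library. The 11 shares add up to the whole and are not independent, so their number without overlap cannot be read against that background. The families' own sums of normalized counts overlapped, at 2442 to 3147 against 2879 to 4059 for MGST and 573 to 706 against 471 to 681 for SULT, and the AKR sum had a ratio of 1.07 although its share was lower. All shares depend on the same total, of which GSTP1 is the largest part; with GSTP1 left out, the MGST, NQO2 and SULT shares still did not overlap, the AKR shares did, and the ALDH share became lower in each Tan I library.

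**Figure D4:**
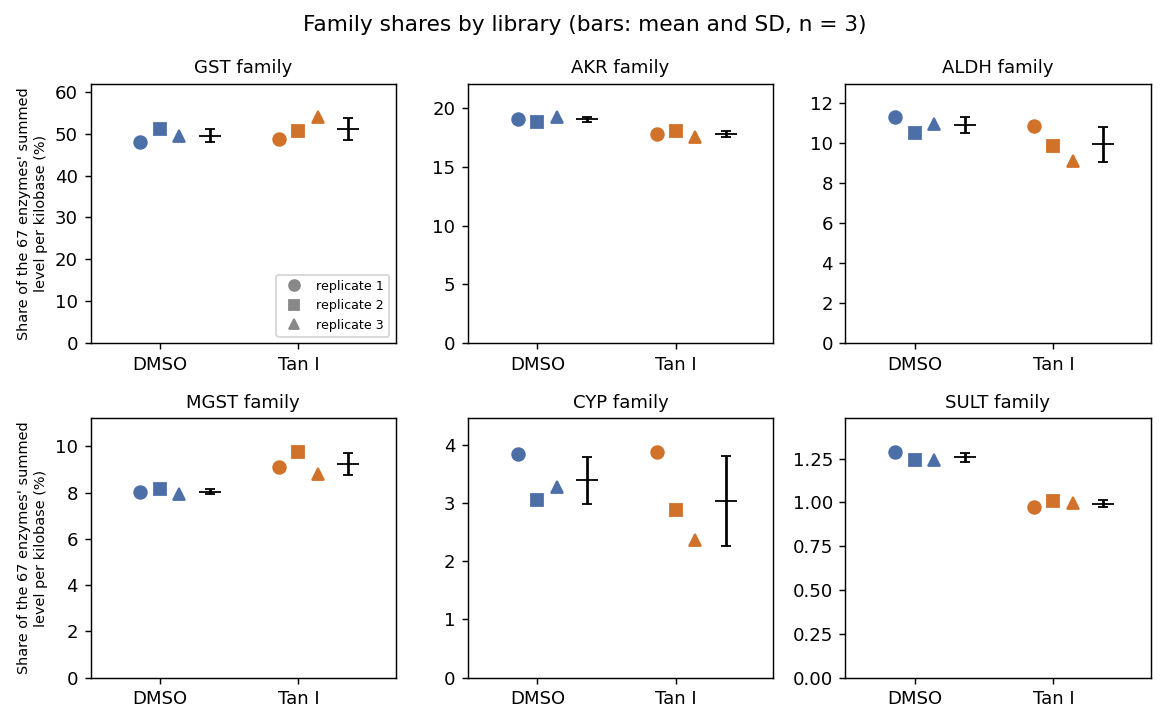
Share of the summed level per kilobase of the 67 enzymes held by 6 families in each library, in percent, from 0; symbols mark replicate numbers and the bars give the mean and SD (n = 3). The MGST share is higher and the AKR and SULT shares are lower in all Tan I libraries, while the GST, ALDH and CYP shares overlap.

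The count of calls differed when the first principal component was a covariate or a library was left out, and the reason was not tested. With the score on that component as a covariate, 8 enzymes were called, 3 higher (AKR1C3, CYP11A1 and MGST1) and 5 lower (ALDH1B1, ALDH4A1, CYP3A4, GSTT4 and SULT2B1). In the same fit 4.25% of all genes tested were called higher and 4.61% lower, so the background rose as well. The SE of GSTP1 fell from 0.25 to 0.06 and that of ALDH1B1 from 0.37 to 0.16. Leaving out Tan I replicate 1 also gave 8 enzymes, where 8.86% of all genes tested were called: the 3 of the full comparison with ALDH16A1, CYP11A1, CYP3A7, CYP4V2 and NQO2. At that setting the fold changes were 0.72 for CYP11A1, 0.41 for NQO2 and 0.46 for ALDH16A1. Leaving out DMSO replicate 2 gave 4 enzymes (CYP3A4, MGST1, CYP11A1 at 0.85 and NQO2 at 0.41, beside 2.76% of all genes) and leaving out Tan I replicate 3 gave 2 (1.60%). It was 1 enzyme each without DMSO replicate 1 (1.07%), DMSO replicate 3 (1.19%) or Tan I replicate 2 (0.947%).

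Genes that supply these enzymes with electrons, NADPH, glutathione and sulfate or glucuronate donors were taken as a list of 25. All 25 were tested, 23 had a positive log2 fold change, and the median was 0.17, or 0.0865 with the first principal component as covariate. Over all genes tested, 8393 of 16887 were fitted higher, and the medians were -0.0016 and -0.00028. The list was chosen with earlier results of these data known, so the count of 23 is a description only. Of the list, 3 were called higher and 0 lower, beside 1.32% and 1.10% of all genes tested. Among those called, PGD, a dehydrogenase of the pentose phosphate pathway, had a log2 fold change of 0.41, and ME1, malic enzyme, one of 0.52. PGD had 7524, 9103 and 8315 normalized counts in DMSO and 9356, 11070 and 13018 in Tan I, without overlap. ME1 had 518, 734 and 559 in DMSO and 724, 873 and 999 in Tan I, where Tan I replicate 1 lay just under DMSO replicate 2. Their adjusted p from limma was 0.999, and 0.0156 for PGD and 0.0181 for ME1 with the first principal component as covariate. The covariate was computed from the same values that were tested, so the lower p-values give no separate support.

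Of 57 other enzymes of this metabolism outside the symbol rule, 37 were measured and 36 tested, 16 with a positive and 20 with a negative fold change. NQO1 was the only call, beside 1.32% of all genes tested called higher and 1.10% lower. Of the 9 receptors and regulators measured, none was called. NFE2L2, which encodes NRF2, was fitted at 0.11, and NR1I2, which encodes the pregnane X receptor known to regulate CYP3A4, at -0.02 from 49.2 to 62.5 normalized counts.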

How the data were processed

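RNA-seq of NB4 cells was analysed in 6 libraries, 3 with DMSO and 3 with 10 µM Tan I for 3 days, grouped by their labels. According to the methods, the authors used STAR to align to GRCh38, discarded reads with several mapping places and counted the others per gene with featureCounts. The strand setting, annotation release and tool versions are not given in the sources used here. The deposited signal values are normalized read counts, each divided by 1 size factor per library (0.750 to 1.28). Whole reads were recovered from 100% of the deposited values (tolerance 1e-06). Columns holding the authors' comparison (fold changes and p-values) were not used.

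The test was limma 3.58.1 (R 4.3.3, lmFit and eBayes with trend) on log2(normalized count + 1) for genes with a mean of at least 10, which left out 1738 genes, with Benjamini-Hochberg adjustment. Calls used an unadjusted p of at most 0.05 together with a log2 fold change of 0.25 or more in absolute size. Alternatives included edgeR 4.0.16 and DESeq2 1.42.0 on the recovered reads, and each library left out. The fits were also run on counts simulated gene by gene, without a component shared between libraries, so that run does not cover the spread seen here. Canonical transcript lengths, positions and shared 150-base stretches came from GENCODE release 44 (all 67 enzymes matched), and promoters from RefSeq. Genes named singly were the members called, the 10 highest per kilobase and the largest rise and fall of each family; others were named to account for the set. The members and lists were chosen with earlier results of these data known. A planned comparison of protein sequences was not run. The values of 1 gene of the supply list are not reported here.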

Additional observations from a re-analysis of the deposited data

How the results depend on the processing

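Low genes were measured least precisely: the median standard error was 0.34 for enzymes with means of 10 to 100 and 0.13 for those of at least 1000. Counting error alone is large for CYP3A4 and GSTT4, and the part of depth was not tested. No cause was tested for any change below. Against 408 genes and 3 enzymes called, the first principal component as a covariate gave 1496 and 8, a minimum log2 fold change of 1 gave 49 and 1, and a minimum mean of 50, which removes CYP3A4 and GSTT4, gave 1 enzyme. Leaving out 1 library gave from 160 genes, with Tan I replicate 2 left out, up to 1496, with Tan I replicate 1 left out, and 1 to 8 enzymes. CYP3A4, whose mean in Tan I (8.55) lay under the minimum of 10, was called in all 16 alternatives in which it was tested. All of them reuse the same libraries, so this gives no separate support for a fall. The 5 enzymes without overlap (7.89% of all genes tested) became 3 at a minimum mean of 50 (7.93%), 8 with quantile normalization (7.56%), 15 with equal totals (8.30%), and 6 to 21 when 1 library was left out (11.0% to 26.5%), which leaves fewer libraries to overlap. Equal totals moved the median of all genes to -0.06 and the calls from 223 higher and 185 lower to 188 and 250. The median over the enzymes moved by less than 1 SD between libraries in all alternatives.

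Correlations of the deviations of same-numbered libraries from their group means were 0.75, -0.088 and -0.45. They cannot decide whether the replicate numbers pair the libraries. The first principal component held most of the variance, and the labels give only the numbers. With the number as a replicate block, 348 genes and 2 enzymes (CYP3A4 and MGST1) were called. Of 388 pairs of a named enzyme and an alternative, 343 kept direction and call, 15 lost and 10 gained a call, and 20 changed direction. The last were GSTM4 with quantile normalization (-0.0103) and equal totals (-0.0354), CBR4 with equal totals (-0.0016), AKR7A2 with edgeR (0.0056) and DESeq2 (0.0072), AKR1B1 (-0.0340) and GSTM2 (0.0184) with the covariate, and with 1 library left out AKR1A1 (-0.0183 to 0.23), AKR1B1 (-0.0709 to 0.20), AKR7A2 (-0.18 to 0.15), ALDH1B1 (-0.50 to 0.14), CBR3 (-0.52 to 0.19), GSTK1 (-0.10 to 0.0447), GSTM2 (-0.19 to 0.11) and GSTM4 (-0.0161 to 0.0736).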
